A study of Mus musculus with 28 samples.

Results

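Mouse embryonic fibroblasts (MEFs) of the genotype K36M were sequenced in 2 states, at day 0 of a reprogramming course (d0) and as MEFs without the OKSM reprogramming factors (noOKSM). The comparison holds 4 of the 28 poly(A) RNA-seq libraries of the series, 2 K36M noOKSM libraries against 2 K36M d0 libraries, and covers all 16932 genes that passed a filter on low counts. The matching 2 WT noOKSM and 2 WT d0 libraries, whose library names carry H3_3 where the others carry K36M, served as the comparison genotype. MEFs were grown in DMEM with serum and the labels give these groups the cell type MEF, a genotype and no agent. The age of the MEFs, the number of embryos behind a library, the time in culture of the noOKSM MEFs and what drives the K36M allele are stated in none of the labels. The remaining 20 libraries (d2, d4, d6, d8 and iPSCs of both genotypes) entered the model and are shown only where they place a gene's level.

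K36M is a histone H3 in which the lysine that SETD2, NSD and ASH1L enzymes methylate is replaced by methionine. Such an H3 is known to inhibit these enzymes and to lower methylation of that lysine on normal H3, a mark of transcribed gene bodies and of broad intergenic domains. MEFs are mesenchymal cells with high collagen, fibronectin and actin expression, and their matrix and contractile programmes depend on TGF-beta, Yap and AP-1 activity. OKSM stands for the transcription factors Oct4, Klf4, Sox2 and Myc, which turn fibroblasts into pluripotent cells.

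The 4 K36M libraries held 25424170 to 29097498 counts, within the range of 17507521 to 35622279 over all 28. Each group had 2 libraries, and nothing in the labels says whether these came from separate cultures or animals, so p-values measure the spread between such libraries. Replicates of a group differed by more than sampling noise in all 4 MEF groups, with a chi-square per degree of freedom of 2.35 in K36M d0 and 31.6 in K36M noOKSM. The d0 libraries carry the library prefix MHb8 and the noOKSM libraries MHb9, so state and library series cannot be told apart within a genotype. Some pseudogenes differed between these sets of libraries in both genotypes: Rps13-ps1 had 21.8 to 66.7 CPM (counts scaled to library size) in all 24 MHb8 libraries and 0 to 0.0765 CPM in the 4 MHb9 libraries, Rpl3-ps1 had 45.4 to 156 CPM against 2.55 to 4.78 CPM, and Gm13456 had 72.5 to 136 CPM against 12.4 to 13.5 CPM. The difference between the K36M and the WT change sets 2 genotypes against each other within each library series and is given beside the K36M change for this reason. This difference was itself called for Rpl3-ps1 (1.12 on the log2 scale), and it varied with gene length, as given below. Fibroblast markers were high in all 4 K36M libraries: Col1a1 was at 12810 and 12590 CPM at d0 and 10820 and 7610 CPM in noOKSM, Thy1 at 1274 and 1374 CPM and 1063 and 1103 CPM, and Vim at 6224 and 6424 CPM and 5525 and 5921 CPM. Vim was chosen after its values were seen, and none of the 3 passed the test. Among other fibroblast markers, Col1a2, Pdgfrb, Prrx1 and Twist2 were called lower in K36M noOKSM, and Pdgfra was not called. Col1a1 passed with no low-count filter (log2 -0.50, edgeR adjusted p = 5.55e-07) and without K36M noOKSM replicate 1 (log2 -0.74, adjusted p = 0.0254), and Thy1 with no filter (adjusted p = 0.0121), with the 8 MEF libraries alone (adjusted p = 0.0262) and with the offset for exonic length described below (adjusted p = 0.00151), all downward.

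The H3.3 gene H3f3a, which encodes the histone that K36M alters, rose in noOKSM in both genotypes. Its level was 45.5 and 48.8 CPM in the K36M d0 libraries and 99.7 and 131 CPM in the K36M noOKSM libraries, a log2 change of 1.29 ± 0.12 (SE) with an edgeR adjusted p of 1.61e-08. In WT it went from 49.1 and 43.3 to 163 and 154 CPM, a log2 change of 1.78 ± 0.12, and the K36M change minus the WT change was -0.49 (adjusted p = 0.0294). That difference missed the threshold with the 8 MEF libraries alone (adjusted p = 0.0804) and without K36M d0 replicate 2 (0.103), K36M noOKSM replicate 1 (0.148), WT d0 replicate 2 (0.108) or WT noOKSM replicate 1 (0.1). Counts per gene cannot show whether the added reads come from the chromosomal gene or from a transgene, nor which residue they encode. The rise followed the change from MHb8 to MHb9 libraries in both genotypes, so state and library series cannot be told apart for it. H3f3b, the other H3.3 gene, was at 400 and 409.7 CPM at d0 and 341 and 387 CPM in noOKSM of K36M and was not called (log2 change -0.15, adjusted p = 0.158), while DESeq2 (adjusted p = 0.0441) and the fit with the offset for exonic length (adjusted p = 0.00634) called it lower.

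A total of 5834 genes (34.5% of those tested) differed between K36M noOKSM and K36M d0 at an adjusted p below 0.05 in edgeR's quasi-likelihood test. Of these, 3186 were higher in noOKSM (18.8% of tested genes) and 2648 lower (15.6%), and 1925 changed by at least 2-fold, 1376 upward and 549 downward. At 4-fold or more the split was 601 up and 179 down. The low-count filter used all 14 groups of the series, reprogramming stages and iPSCs included. With the 8 MEF libraries alone, 5874 of 14459 tested genes were called in K36M. The WT MEFs gave 1389 calls (8.2%), 702 higher (4.15%) and 687 lower (4.06%). The change itself differed between the genotypes for 4246 genes (25.1%), 2173 with a K36M change above the WT change (12.8%) and 2073 below it (12.2%). Among the 5834 K36M calls, 455 were called in the same direction in WT, which is 7.8% of the K36M calls and 32.8% of the WT calls, and 341 were called in the opposite direction. The difference from WT was called for 3404 of the K36M calls (58.3%). The number of K36M calls varied with the library left out: it was 3432 without K36M d0 replicate 1, 3922 without K36M d0 replicate 2, 5589 without K36M noOKSM replicate 1 and 3315 without K36M noOKSM replicate 2.

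**Figure D1:**
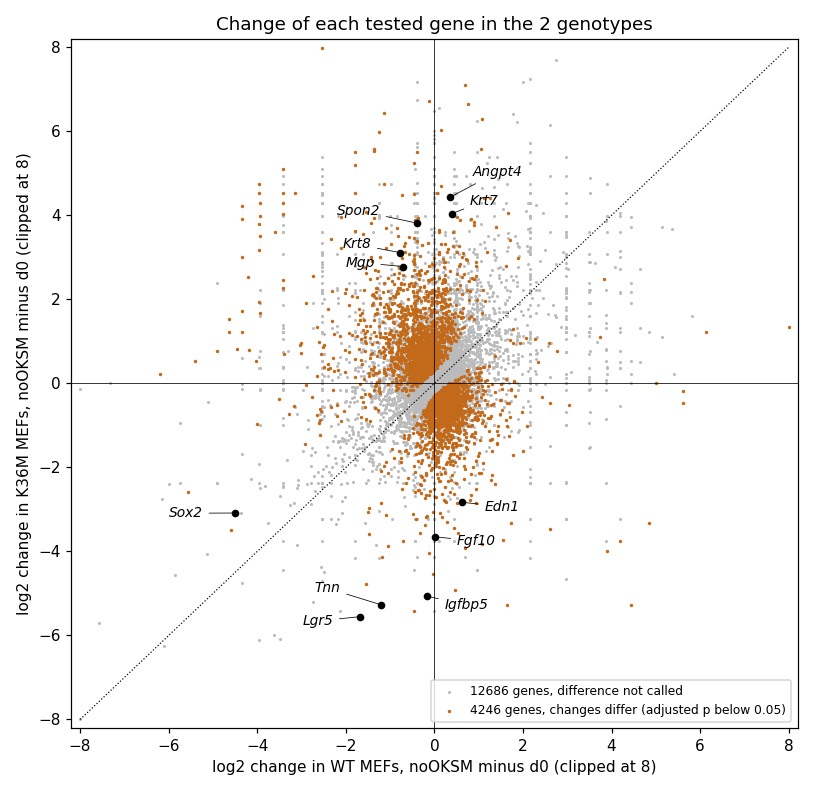
Each point is 1 of the 16932 tested genes, with its log2 change (noOKSM minus d0) in WT on the x axis and in K36M on the y axis, both clipped at 8. Orange marks the 4246 genes whose changes differed at an adjusted p below 0.05; genes of equal change would lie on the dotted line, and Igfbp5, Fgf10, Krt7 and Angpt4 lie near a WT change of 0.

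The change in K36M varied with the length of the transcript. Among protein-coding genes in 5 equal bins of exonic length, 30% of the shortest (median 1.39 kb) were called higher and 4.12% lower, while 10.3% of the longest (median 8.06 kb) were called higher and 34.2% lower. The median log2 change fell from 0.27 in the shortest bin to -0.23 in the longest in K36M and ran from -0.11 to 0.13 in WT. Libraries of a group also differed on this axis: relative to the mean over 28 libraries, the smoothed log2 level of the longest 10% of genes was 0.20 and 0.15 in K36M d0, 0.04 and -0.16 in K36M noOKSM, -0.12 and 0.11 in WT d0, and 0.18 and 0.11 in WT noOKSM. In 5 equal bins of gene span, the difference between the K36M and the WT change was called upward for 21.1% of the shortest genes. It was called downward for 4.35% of them, against 7.52% upward and 28.4% downward for the longest. With an offset that removes the trend with exonic length from each library, 5689 genes were called in K36M, 4692 of them among the 5834. For the difference, 3678 genes were called, 3024 of them among the 4246. Counts from this fit are given beside the gene groups whose larger count moved by more than 1.5 times.

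**Figure D2:**
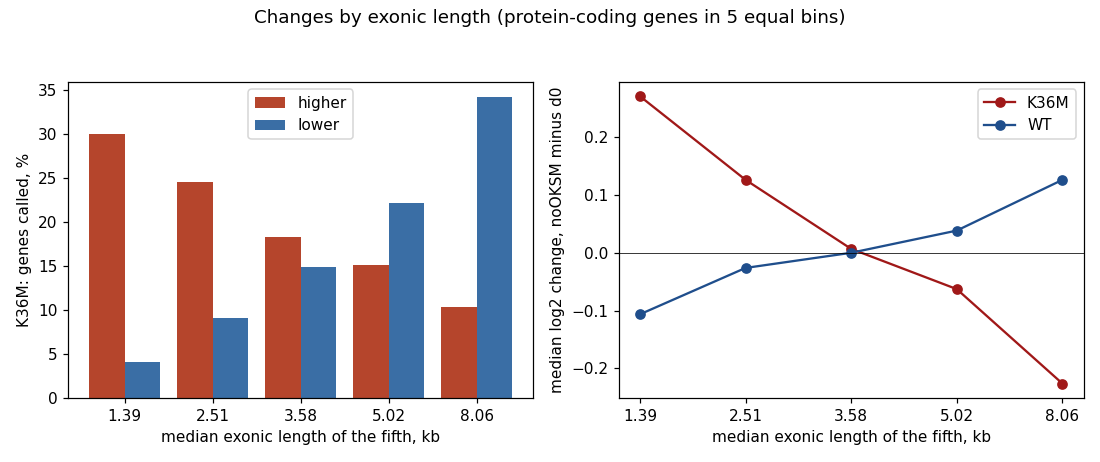
Protein-coding genes in 5 equal bins of exonic length, labelled by the bin's median in kb. The left panel gives the percent of genes called higher (red) and lower (blue) in K36M noOKSM, and the right panel the median log2 change in K36M and WT, which lie closest in the bin of 3.58 kb.

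The 15 genes of largest rise in K36M, taken among those with a mean of at least 5 CPM over its 4 libraries, ran from 3.11 to 5.20 on the log2 scale. By the rule that chose them all 15 had K36M noOKSM libraries above both K36M d0 libraries. Krt7 (chr15:101241474-101260744, mm9, + strand), a keratin of simple epithelia, was at 8.35 and 8.52 CPM at d0 and 127 and 151 CPM in noOKSM, a 16.5-fold rise (log2 4.04 ± 0.16 SE, edgeR adjusted p = 3.22e-14). In WT the same gene stood at 4.67 and 3.21 CPM at d0 and 4.72 and 5.69 CPM in noOKSM (log2 0.40, adjusted p = 0.243), and the difference of 3.64 was called (adjusted p = 1.53e-09). Krt8 (chr15:101827142-101834773), another keratin gene, rose from 10.8 and 10.9 to 89.5 and 97.6 CPM while WT libraries held 0.484 to 1.12 CPM. Qprt, an enzyme of NAD synthesis, had the largest log2 rise of the 15, from 0.223 and 0.414 to 10.6 and 13 CPM (log2 5.20 ± 0.29, adjusted p = 3.09e-11), and the 4 WT libraries held 0 to 0.107 CPM. Slc52a3, a riboflavin transporter, rose from 0.759 and 0.599 to 15 and 15.8 CPM. Angpt4, an angiopoietin, rose from 1.7 and 1.47 to 33.9 and 34.8 CPM with WT libraries at 1.29 to 2.1 CPM. The remaining 10 were Pygl (liver glycogen phosphorylase), Slfn2, Sncg (gamma-synuclein), Spon2 (a matrix protein), Klra4, Ccl17 (a chemokine), Sdsl, Fndc5, Cd53 (a leukocyte tetraspanin) and B3gnt3 (a glycosyltransferase). Of these, Slfn2 also rose in WT, from 3.17 and 2.7 to 9.92 and 8.67 CPM, against 1.07 and 0.829 to 15.5 and 16.5 CPM in K36M, and the K36M rise was larger by 2.40 (adjusted p = 3.38e-05). Klra4 belongs to a family of near-identical genes, and its count is uncertain.

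Spon2, Mgp and Dhrs3 were lower in K36M than in WT at d0 and higher in noOKSM. Spon2 stood at 2.19 and 2.21 CPM in K36M d0 against 11.7 and 9.13 CPM in WT d0, and at 30.9 and 31.2 against 8.14 and 7.54 CPM in noOKSM, with a difference between the changes of 4.22 ± 0.26 (SE, adjusted p = 2.17e-10). Mgp, an inhibitor of calcification made by cartilage and vessel wall, crossed over in the same way, from 48.4 and 57.2 to 308 and 418 CPM in K36M and from 168 and 122 to 90.6 and 86.8 CPM in WT. Dhrs3, a retinal reductase, rose from 4.06 and 4.79 to 34.8 and 34.8 CPM in K36M and fell from 17.1 and 16.8 to 11.3 and 9.2 CPM in WT, with a difference of 3.70 (adjusted p = 4.02e-08). Arsi, a sulfatase that was higher in K36M than in WT already at d0, rose from 5.09 and 4.84 to 17.1 and 17 CPM in K36M and fell from 2.63 and 1.53 to 0.734 and 0.524 CPM in WT.

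The 15 genes of largest fall in K36M were chosen by the same rule. Igfbp5 (chr1:72904506-72921458, - strand), which binds insulin-like growth factors, was at 2645 and 2626 CPM in K36M d0 and 93.9 and 63.7 CPM in K36M noOKSM, a log2 change of -5.06 ± 0.20 (edgeR adjusted p = 3.22e-14). WT MEFs held it at 359 and 445 CPM at d0 and 385 and 327 CPM in noOKSM, so the K36M libraries were the highest of the 4 MEF groups at d0 and the lowest in noOKSM. Lgr5, an R-spondin receptor known as a stem cell marker, fell from 53 and 53.4 to 1.44 and 0.841 CPM (log2 -5.55 ± 0.22, adjusted p = 3.64e-14). WT libraries had 3.97 and 4.9 CPM at d0 and 1.4 and 1.37 CPM in noOKSM, a smaller fall, with a difference of -3.87 (adjusted p = 5.62e-08). Tnn, the matrix protein tenascin-N, fell from 36.5 and 36.9 to 1.02 and 0.879 CPM, again from a d0 level far above the 1.61 and 1.58 CPM of WT d0. Igsf10 fell from 109 and 113 to 21.3 and 12.8 CPM, and its noOKSM libraries lay either side of the 13.7 to 16.5 CPM of the WT libraries.

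Other genes that fell ended below the WT level. Edn1, the vasoconstrictor endothelin-1, was at 12.9 and 11.1 CPM in K36M d0 and 13.8 and 12.3 CPM in WT d0, and at 1.86 and 1.53 against 20.7 and 19.7 CPM in noOKSM. The K36M fall (-2.83 ± 0.15) and the WT rise (0.63 ± 0.12) were both called, with a difference of -3.46 (adjusted p = 4.78e-11). Fgf10, a growth factor of limb and lung mesenchyme, fell from 15.1 and 13.8 to 1.19 and 1.11 CPM with WT at 4.24 to 5.15 CPM. Epas1, the hypoxia-inducible factor HIF-2alpha, fell from 26.4 and 26.6 to 5.25 and 3.67 CPM with WT at 13.5 and 20.5 CPM at d0 and 21.2 and 22.2 CPM in noOKSM. Dapk3, a kinase of myosin light chains, fell from 29 and 30.4 to 4.96 and 5.16 CPM with WT at 41.5 to 49.1 CPM. The guidance factors Sema3d and Sema6d and the fibrinogen-like protein Fgl2 fell in K36M and rose in WT: Fgl2 went from 23.2 and 22.8 to 2.79 and 3.82 CPM in K36M and from 5.37 and 6.58 to 10.7 and 10.3 CPM in WT. Kcnf1, Peli2, Nrn1 and Dner complete the 15, with log2 changes from -2.84 to -2.54.

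**Figure D3:**
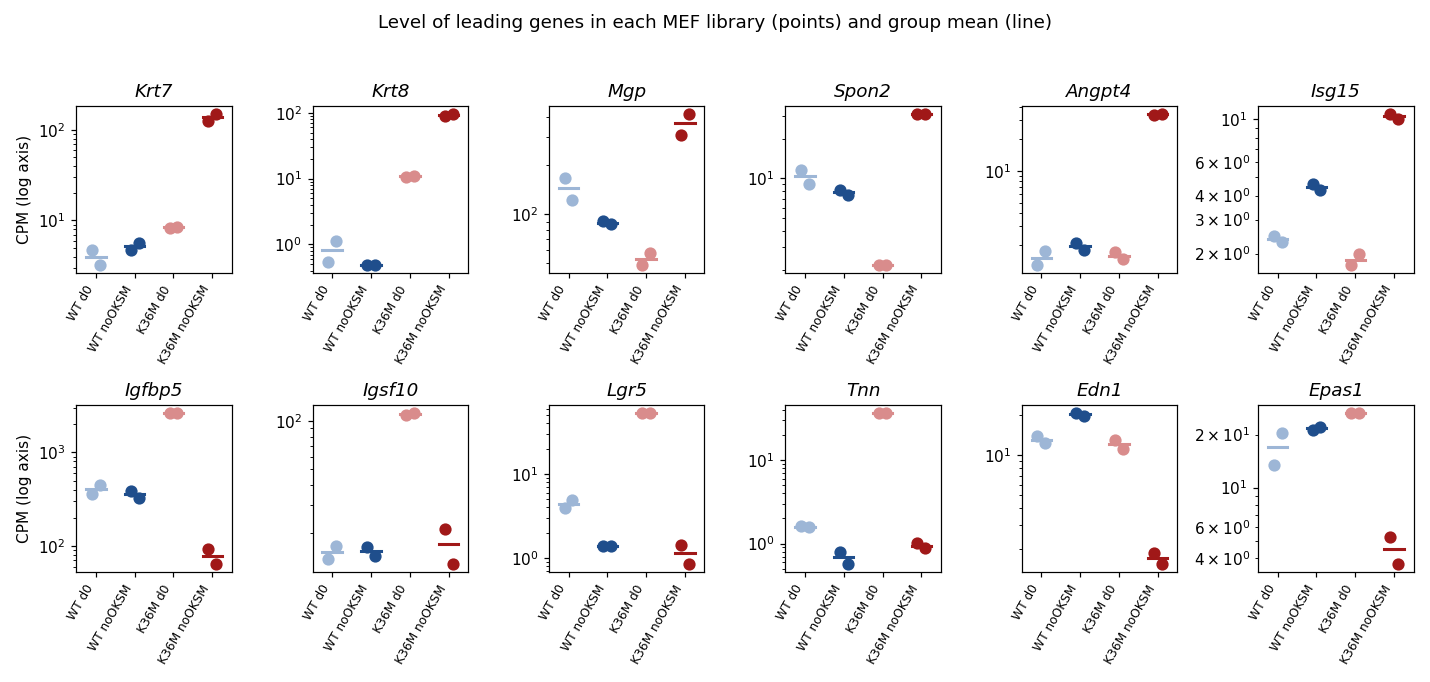
Level of 12 genes in the 8 MEF libraries in CPM on a log axis, with 1 point per library and a line at the group mean (n = 2). Krt7, Krt8, Mgp, Spon2, Angpt4 and Isg15 are highest in K36M noOKSM, and Igfbp5, Igsf10, Lgr5 and Tnn are highest in K36M d0.

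Genes of epithelial cells rose more often than they fell in K36M, led by keratins. Of 30 tested members of an epithelial list, 16 rose and 0 fell in K36M, against 18.8% and 15.6% of all tested genes, and the median log2 change was 1.42, or 1.36 with 7 members at 0 counts in a K36M group handled apart (2 set at their bound and 5 left out), beside 0.02 over all genes. By edgeR 1 member fell at an unadjusted p below 0.05, and DESeq2 called 14 higher and 0 lower. In WT 2 rose and 3 fell, and the 2 changes differed for 11 members upward and 1 downward. The summed level was 183 and 187 CPM at K36M d0 and 580.4 and 617 CPM in K36M noOKSM, against 132 and 141 CPM at d0 and 164 and 168 CPM in noOKSM in WT. Krt7, Krt18 and Krt8 had the largest rises in CPM, while the defining junction protein Cdh1 (E-cadherin) had 0.134 and 0.138 CPM at d0 and 0.0847 and 0.382 CPM in noOKSM and was not called (adjusted p = 0.468). Esrp1, an epithelial splicing factor, went from 0 counts to 5 counts over the 2 noOKSM libraries, at least 1.48-fold higher by a floor of 3 counts over the group, and its call was lost in 5 of the alternative fits. The transcription factors Ovol2 and Ehf were at 0 counts in both K36M groups. A keratinocyte list did not move upward by edgeR, with 0 of 15 members higher (1 at an unadjusted p below 0.05 and 1 by DESeq2) and 2 lower (4 with the offset for exonic length, and 1 higher and 1 lower without K36M noOKSM replicate 1), led by Krt14, a basal keratin, which fell from 1.96 and 1.38 to 0 and 0.0765 CPM (edgeR adjusted p = 1.83e-06). Keratins have near-identical copies and pseudogenes, so reads can be split among them.

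Genes of the interferon response, the antiviral programme that interferons switch on, rose together in K36M. Of 20 tested members 15 rose and 1 fell, with a median log2 change of 1.31, against 18.8% and 15.6% of all tested genes. In WT 4 rose and 0 fell, with a median of 0.66, against 4.15% and 4.06% of all tested genes. The K36M change was above the WT change for 8 members and below it for 1. The summed level went from 151 and 155 CPM in the K36M d0 libraries to 258 and 291 CPM in the K36M noOKSM libraries and from 139 and 147 to 169 and 183 CPM in WT. The WT libraries were thus also higher in noOKSM. Oas1a, an RNA-sensing synthetase, was at 0.134 and 0.276 CPM at d0 and 3.69 and 2.56 CPM in noOKSM (log2 3.89 ± 0.47, edgeR adjusted p = 1.44e-06). Its relative Oasl2 rose from 0.938 and 0.921 to 7.5 and 6.27 CPM. Ifi44 rose from 0.0893 and 0.322 to 2.29 and 2.03 CPM, and its difference from WT missed the threshold (adjusted p = 0.0533). Isg15, a ubiquitin-like modifier, rose from 1.74 and 1.98 to 10.7 and 10.1 CPM (log2 2.47 ± 0.28, adjusted p = 5.62e-07) and in WT stood at 2.47 and 2.3 CPM at d0 and 4.61 and 4.28 CPM in noOKSM (adjusted p = 0.0628). The single member that fell was Ifit2, from 24 and 22.8 to 14.2 and 14.6 CPM, named after its values were seen, while Ifit1 and Ifit3 of the same cluster rose. Oas and Ifit genes are families of close copies, which makes the split of reads among them uncertain.

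Promoter letters were set beside these levels for the interferon list, since its members are known targets of factors that bind repeats of GAAA. Of the 20 tested members 17 had a promoter in a RefSeq table (GRCm38.p6), and 8 of the 17 (47.1%) held GAAA, any 2 bases and GAAA on either strand in the 250 bases before the start, against 3.04% of 27025 promoters in that table and 3.58% of the 2404 promoters of genes called higher in K36M noOKSM. Matches may overlap each other. A match describes letters and shows no binding. Stretches from 4 members with a match are shown, 5′ to 3′ on the gene's strand, with every base inside a match in capitals.
Oas1a, log2 change 3.89, GRCm38.p6 chr5:120907526-120907575, - strand: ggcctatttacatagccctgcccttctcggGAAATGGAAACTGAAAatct
Isg15, log2 change 2.47, GRCm38.p6 chr4:156200845-156200926, - strand: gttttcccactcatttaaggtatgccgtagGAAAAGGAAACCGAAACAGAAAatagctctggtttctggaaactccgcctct
Bst2, log2 change 2.41, GRCm38.p6 chr8:71537557-71537632, - strand: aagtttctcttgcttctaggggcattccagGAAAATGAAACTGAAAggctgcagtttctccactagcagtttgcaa
Ifit1, log2 change 1.12, GRCm38.p6 chr19:34640755-34640843, + strand: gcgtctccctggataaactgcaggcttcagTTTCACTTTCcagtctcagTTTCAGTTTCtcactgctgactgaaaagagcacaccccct
Oas1a, Isg15 and Bst2 carried overlapping matches on the gene's strand, and Ifit1 carried 2 separate matches on the other strand. A match did not go with a rise in each case: Rsad2 held 1 match and had a log2 change of -0.02 that was not called, and Ifi44 and Oasl2 rose with no match in this window.

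Genes for antigen presentation by class I molecules, which interferons are known to raise, rose in K36M. Of 12 tested members 11 rose and 0 fell in K36M (median log2 change 1.24), and 1 rose in WT (median 0.05). The shares of all tested genes were 18.8% and 15.6% in K36M, and 4.15% rose in WT. The difference between the changes was called upward for 10. Psmb8, an immunoproteasome subunit, rose from 3.71 and 3.5 to 16.6 and 18.9 CPM (log2 2.30 ± 0.26, adjusted p = 5.77e-07) while WT libraries held 2.91 to 5.15 CPM. Tap2, which carries peptides into the endoplasmic reticulum, rose from 8.88 and 9.49 to 34.6 and 33.2 CPM against 12.2 and 12.1 CPM at d0 and 15.4 and 15.8 CPM in noOKSM in WT. The class I genes H2-Q4 and H2-M3 rose from 3.53 and 3.22 to 10.7 and 10.7 CPM and from 2.37 and 2.21 to 6.61 and 7.8 CPM, with the caution that class I genes are near-identical copies. Here too the summed level separated the groups, at 519 and 529 CPM in K36M d0, 901 and 986 CPM in K36M noOKSM and 556 to 636 CPM over the 4 WT libraries.

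**Figure D4:**
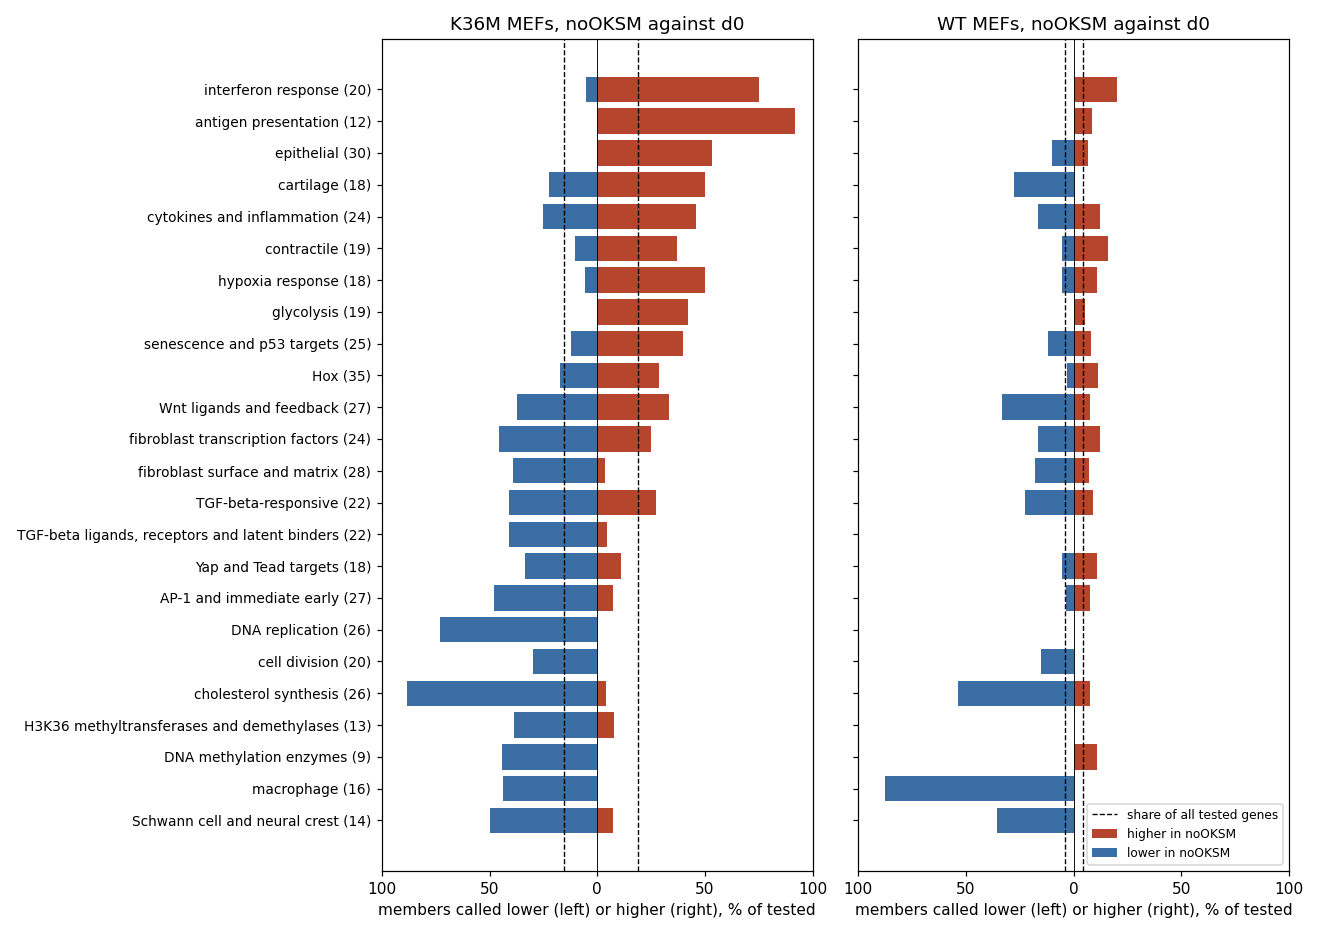
Percent of the tested members of 24 gene lists (tested members in parentheses) called higher (right, red) or lower (left, blue) in noOKSM in K36M and WT. Dashed lines give the shares over all tested genes, 18.8% and 15.6% in K36M and 4.15% and 4.06% in WT; interferon, antigen presentation, DNA replication and cholesterol synthesis lie far outside them in K36M.

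Genes of fibroblast identity fell more often than they rose. Over all tested genes 15.6% fell and 18.8% rose in K36M, and 4.06% fell and 4.15% rose in WT. Of 24 tested fibroblast transcription factors 11 fell and 6 rose in K36M, and in WT 4 fell and 3 rose. Without K36M noOKSM replicate 1 the number that rose was 3. Osr1, a regulator of connective tissue precursors, fell from 24.1 and 24.4 to 6.35 and 6.04 CPM (log2 -1.97 ± 0.17, edgeR adjusted p = 1.19e-08) with WT at 24 to 25.7 CPM. Foxf2 fell from 2.19 and 2.58 to 0.974 and 0.917 CPM, and Foxf1a rose from 1.65 and 1.57 to 4.11 and 3.67 CPM. Prrx1, the mesenchymal factor with the highest level among those that fell and chosen after its values were seen, went from 686 and 668 to 432 and 392 CPM, with WT at 461 to 486 CPM. Surface and matrix genes gave 11 lower and 1 higher of 28, and the number that fell was 5 without K36M noOKSM replicate 2. In WT 5 fell and 2 rose, and the K36M change was above the WT change for 5 members and below it for 6. Fn1, fibronectin, fell from 9971 and 9991 to 5219 and 3443 CPM in K36M and rose from 7311 and 10810 to 17640 and 14920 CPM in WT (difference -2.05 ± 0.37, adjusted p = 0.000445). Dpt (dermatopontin) fell from 13.4 and 17.4 to 3.81 and 3.25 CPM and Cd34, a surface sialomucin, from 3.12 and 5.57 to 1.4 and 1.15 CPM. The single member that rose was Mfap5, a microfibril protein, from 7.95 and 9.81 to 39.7 and 44.1 CPM, against 23.7 and 18.3 CPM at d0 and 26.3 and 27.7 CPM in noOKSM in WT.

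In K36M 15.6% of all tested genes were lower and 18.8% higher. Genes for the ligands, receptors and latent binders of TGF-beta, the factor that drives matrix production in fibroblasts, fell more often than they rose. Of 22 tested members 9 were lower and 1 higher in K36M. In WT edgeR called 0 of them, with 2 higher and 2 lower at an unadjusted p below 0.05, and DESeq2 called 2 lower. The number lower was 4 without K36M d0 replicate 1 and 5 without K36M noOKSM replicate 2. Tgfbr3, a co-receptor, fell from 34.9 and 33.4 to 12.3 and 10.2 CPM against 9.18 and 10.7 CPM at d0 and 9.22 and 6.98 CPM in noOKSM in WT. The activin subunit genes Inhba and Inhbb fell from 313 and 309 to 143 and 160.3 CPM and from 108 and 115 to 53.5 and 51.3 CPM. Inhba differed from WT, where it stood at 396 and 446 CPM at d0 and 527 and 557 CPM in noOKSM, by -1.40 (adjusted p = 1.32e-05). Genes known to respond to TGF-beta split, 9 lower and 6 higher of 22 in K36M and 5 lower and 2 higher in WT. The K36M change was above the WT change for 9 of the 22 and below it for 7. Their summed level fell from 29010 and 29570 CPM in the K36M d0 libraries to 13270 and 14810 CPM in the K36M noOKSM libraries. In WT the sum was 34380 and 36350 CPM at d0 and 38260 and 40410 CPM in noOKSM. Thbs1, thrombospondin-1, was the most abundant of the 22, at 13310 and 13320 CPM in K36M d0 and 4023 and 3254 CPM in K36M noOKSM (log2 -1.87 ± 0.17, adjusted p = 2.3e-08). Its WT level was 13810 and 15760 CPM at d0 and 18560 and 17620 CPM in noOKSM. Tnc, tenascin-C, fell from 5202 and 5535 to 2245 and 1705 CPM. Angptl4 rose in both genotypes, by 1.27 in K36M and 1.19 in WT on the log2 scale.

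Targets of Yap and Tead, the transcription factors that read cell tension, gave 6 lower and 2 higher of 18 in K36M and 1 and 2 in WT; 3 were lower without K36M noOKSM replicate 2. Ctgf, a matricellular growth factor, fell from 1452 and 1548 to 787 and 935 CPM (log2 -0.80 ± 0.12, adjusted p = 1.46e-05) against 3208 and 2715 CPM at d0 and 3393 and 3304 CPM in noOKSM in WT. Amotl2 and the kinase gene Lats2 fell from 499 and 494 to 344 and 306 CPM and from 178 and 176 to 120.2 and 109 CPM. F3, tissue factor, rose from 134 and 134 to 201 and 219 CPM. Contractile genes rose more often than they fell, with 7 of 19 higher and 2 lower in K36M and 3 higher and 1 lower in WT. The K36M change was above the WT change for 4 members and below it for 4. For these and the Yap and Tead targets, the shares over all tested genes were 18.8% higher and 15.6% lower in K36M. In WT they were 4.15% and 4.06%. Des, the intermediate filament desmin, rose from 41.3 and 43 to 207 and 226 CPM in K36M and fell from 94.7 and 83.6 to 54 and 56.5 CPM in WT (difference 3.05 ± 0.19, adjusted p = 2.42e-10). Mylk, myosin light chain kinase, rose from 35 and 32.5 to 136 and 139 CPM. Myh11, smooth muscle myosin, rose in both genotypes, by 1.06 in K36M and 0.79 in WT. Myocd, the coactivator of smooth muscle genes, fell from 3.71 and 3.5 to 0.932 and 1.03 CPM, and smooth muscle actin Acta2 was not called (7144 and 7244 CPM at d0 and 6312 and 6792 CPM in noOKSM, adjusted p = 0.495; 0.0251 with the offset for exonic length).

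AP-1 factors and other immediate early genes, which growth factors induce within minutes, gave 13 lower and 2 higher of 27 in K36M. In WT 1 was lower and 2 were higher. The shares of all tested genes were 15.6% lower and 18.8% higher in K36M, and 4.06% and 4.15% in WT. Spry4, a feedback inhibitor of growth factor signalling, fell from 47.3 and 48.3 to 13.3 and 12.3 CPM (log2 -1.90 ± 0.09, edgeR adjusted p = 8.39e-13) with WT at 35.5 to 39.4 CPM. Nr4a1, an orphan nuclear receptor, fell from 72.5 and 83.5 to 22.7 and 19.3 CPM. Klf4 fell from 78.4 and 77.8 to 25.7 and 24.7 CPM in K36M while WT libraries had 55.7 and 57.8 CPM at d0 and 60.6 and 65 CPM in noOKSM, a difference of -1.78 (adjusted p = 7.83e-07). Myc was at 68.7 and 76.4 CPM in K36M d0 and 44.8 and 49.2 CPM in K36M noOKSM (log2 -0.63 ± 0.21, adjusted p = 0.0233), and the call was lost with any 1 of the 4 K36M libraries left out, at log2 changes from -0.70 to -0.55.

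The other factors of the OKSM set were low in MEFs. Pou5f1, which encodes Oct4, was at 2.63 and 2.26 CPM in K36M d0 and 0.0423 and 0.65 CPM in K36M noOKSM, and in WT went from 1.34 and 2.09 to 0 and 0.0403 CPM. Sox2 went from 1.83 and 1.66 to 0.127 and 0.268 CPM in K36M and from 1.29 and 2.3 to 0.105 and 0.0403 CPM in WT. Both falls were called in both genotypes, and neither difference between the genotypes passed the threshold (adjusted p = 0.0708 for Pou5f1 and 0.371 for Sox2). At K36M d2 the same genes had means of 271 and 166 CPM. Among 25 other pluripotency genes 6 rose and 1 fell in K36M, against 18.8% and 15.6% of all tested genes. Their summed level was 37.6 and 39.1 CPM at d0 and 49.8 and 50.5 CPM in noOKSM. These sums were below the 55.2 and 57.1 CPM at d0 and 59.6 and 60.8 CPM in noOKSM of WT. Nanog was at 0.223 and 0.553 CPM at d0 and 1.06 and 1.19 CPM in noOKSM, a call that was lost without K36M d0 replicate 1 (adjusted p = 0.0715). Without that replicate 0 members of the list passed edgeR's threshold in either direction, and 2 were higher without K36M d0 replicate 2, 3 without K36M noOKSM replicate 2 and 7 by DESeq2 on all libraries.

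Genes of DNA replication fell in K36M, where 15.6% of all tested genes were lower and 18.8% higher. Of 26 tested members 19 were lower and 0 higher (median log2 change -0.51), in WT edgeR called 0, with 4 lower at an unadjusted p below 0.05 and 1 lower by DESeq2 (median -0.08), and the difference was called downward for 11. The called changes ran from -0.80 to -0.32 on the log2 scale. Cdc6, which loads the replicative helicase, fell from 28.3 and 27.7 to 16 and 16.1 CPM (log2 -0.80 ± 0.10, adjusted p = 3.07e-06). Rrm2, a ribonucleotide reductase subunit, fell from 206 and 219.9 to 128 and 139 CPM with WT at 187 to 206 CPM, and the polymerase gene Pole from 58.4 and 59 to 37.3 and 30.2 CPM. Mitotic genes gave 6 lower of 20 and 0 higher, also at an unadjusted p below 0.05 and by DESeq2. The number lower was 3 without K36M d0 replicate 1 and 4 without K36M noOKSM replicate 2. Mki67, the antigen of cycling cells, fell from 396 and 374 to 269 and 238 CPM against 189.8 and 258 CPM at d0 and 288 and 265 CPM in noOKSM in WT, and Ccna2, cyclin A2, from 137 and 137 to 92 and 97.3 CPM. Cdkn2a, the locus of the p16 and p19 cell cycle inhibitors, rose from 38.9 and 38.8 to 73.4 and 91.8 CPM (log2 1.09 ± 0.14, adjusted p = 4.09e-06) with WT at 64.4 to 74.1 CPM. Its list of senescence and p53 targets gave 10 higher and 3 lower of 25, and 5 and 5 with the offset for exonic length. Left-out libraries lowered the number higher to 4 without K36M noOKSM replicate 2 and 5 without K36M d0 replicate 1.

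Cholesterol synthesis genes, targets of the sterol sensor SREBP-2, fell in both genotypes. In K36M 23 of 26 were lower and 1 higher (median log2 change -0.67), and in WT 14 and 2 (median -0.55). The shares over all tested genes were 15.6% and 18.8% in K36M and 4.06% and 4.15% in WT. The fall was larger in K36M for 7 members and smaller for 1. Lss, lanosterol synthase, fell from 149.7 and 153 to 67.9 and 60.9 CPM in K36M (log2 -1.23 ± 0.09, adjusted p = 1.57e-09) and from 81.5 and 94.8 to 58.8 and 51.6 CPM in WT (log2 -0.68 ± 0.09, adjusted p = 4.48e-05). Dhcr7, the last enzyme of the pathway, fell by log2 -1.02 and -0.71, and the difference missed the threshold (adjusted p = 0.0753). The member that rose in K36M was Abca1, the cholesterol exporter, from 34.1 and 33.5 to 75.7 and 54.1 CPM, named after its values were seen.

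Energy genes rose by less. Among all tested genes 18.8% rose and 15.6% fell in K36M. In K36M 8 of 19 glycolysis genes were higher and 0 lower, and 4 were higher without K36M d0 replicate 1, 3 without K36M d0 replicate 2 and 5 without either noOKSM library. Slc16a3, a lactate exporter, rose from 83.4 and 85.6 to 142 and 134 CPM and Pdk1, a kinase that turns pyruvate from mitochondria, from 14.6 and 13 to 25.9 and 22.4 CPM. Hypoxia-responsive genes gave 9 higher and 1 lower of 18, and 5 higher without K36M d0 replicate 2. Bnip3, a mitophagy receptor, rose from 18.6 and 21 to 40.7 and 43.5 CPM, while Ndrg1 fell from 63.3 and 68.9 to 25.2 and 21 CPM (log2 -1.52 ± 0.18, adjusted p = 1.53e-06). For mitochondrial respiration 8 of 20 were higher by 0.26 to 0.47 on the log2 scale, 5 with the offset for exonic length. By edgeR 0 of them passed without K36M noOKSM replicate 2 or without K36M d0 replicate 1, against 8 by DESeq2 on all libraries. Without K36M d0 replicate 2 the number was 4.

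Genes for enzymes of the H3K36 mark and of DNA methylation fell more often than they rose. Over all tested genes 15.6% fell and 18.8% rose in K36M. Of 9 tested DNA methylation genes 4 fell and 0 rose, with 1 higher under the offset for exonic length. With that offset the median difference of the DNA methylation list from WT went from -0.54 to -0.07. Of 12 tested H3.3 genes and chaperones 5 fell and 1, H3f3a, rose. H3K36 methyltransferases and demethylases gave 5 lower and 1 higher of 13 in K36M. In WT edgeR and DESeq2 called 0, and 3 were higher at an unadjusted p below 0.05. The number lower in K36M was 3 without K36M d0 replicate 1 and 2 without K36M noOKSM replicate 2. With the offset for exonic length the median log2 change of this list went from -0.36 to -0.12, and 4 were lower. Whsc1l1, the methyltransferase NSD3, fell from 122 and 114 to 90.3 and 72.9 CPM (log2 -0.53 ± 0.11, adjusted p = 0.00101) with WT at 85.8 and 102 CPM at d0 and 119 and 104 CPM in noOKSM. Whsc1, NSD2, fell from 152 and 144 to 109 and 98.7 CPM, a call that the offset removed (log2 -0.17, adjusted p = 0.0984). H3.3 chaperones fell in 5 cases (3 without K36M d0 replicate 1), among them Hira, from 68.8 and 69.8 to 54.3 and 46.7 CPM, and its partners Ubn1 and Ubn2, from 86.8 and 85.2 to 64.5 and 55.2 CPM and from 54.7 and 51.6 to 38.6 and 28.9 CPM. Dnmt1, the maintenance DNA methyltransferase, fell from 195 and 187 to 115 and 97.4 CPM (log2 -0.84 ± 0.10, adjusted p = 5.34e-07) and differed from WT, which held 134 and 146 CPM at d0 and 148 and 147 CPM in noOKSM (adjusted p = 3.45e-05). Uhrf1, which guides Dnmt1 to replicated DNA, fell from 109 and 109.8 to 82.6 and 65.1 CPM, and Tet1 from 10.3 and 8.34 to 6.52 and 4.78 CPM. Polycomb genes, whose complexes write and read the repressive H3K27 mark, split 4 higher and 6 lower of 23, with 3 lower without K36M d0 replicate 2 or K36M noOKSM replicate 2. Cbx8 rose by 0.66 on the log2 scale, and Phf19 and Jarid2 fell, with log2 changes of -0.64 and -0.60.

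Hox genes, which polycomb complexes are known to silence and which mark position along the body, changed in both directions. In K36M 10 of 35 rose and 6 fell, against 18.8% and 15.6% of all tested genes. The K36M change was above the WT change for 7 and below it for 8, against 12.8% and 12.2% of all tested genes. The 10 that rose were Hoxa4, Hoxa5, Hoxb4, Hoxb6, Hoxb7, Hoxb8, Hoxb9, Hoxb13, Hoxc8 and Hoxc9, and the 6 that fell were Hoxa10, Hoxc12, Hoxd3, Hoxd8, Hoxd9 and Hoxd10, so all 6 called Hoxb genes rose and all 4 called Hoxd genes fell by edgeR. Without K36M noOKSM replicate 1, 3 Hox genes fell. Hoxd8 fell from 11.4 and 11.2 to 5 and 4.66 CPM (log2 -1.23 ± 0.15, adjusted p = 1.19e-06) with WT at 5.26 to 6.92 CPM. Hoxc12 fell from 0.804 and 0.645 to 0.0847 and 0.0382 CPM in K36M and rose from 0.215 and 0.204 to 1.57 and 1.01 CPM in WT, with a difference called at an adjusted p of 0.000108. Among imprinted genes 5 rose and 8 fell of 28, and 8 and 9 with the offset for exonic length. H19 fell in both genotypes, from 2558 and 2524 to 888 and 758 CPM in K36M and from 679 and 722 to 116 and 99.7 CPM in WT, and so did its neighbour Igf2, from 1139 and 1161 to 439.6 and 356 and from 551 and 615 to 193 and 182 CPM. Neither difference between the genotypes passed the threshold (adjusted p = 0.0697 and 0.921). Nnat, neuronatin, rose from 16.8 and 18.3 to 65.3 and 72.8 CPM in K36M and from 21.6 and 20.1 to 41.1 and 40.4 CPM in WT, more in K36M by 1.01 (adjusted p = 0.000276).

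Wnt ligands and feedback genes were called often in both directions in K36M, with 9 higher and 10 lower of 27, and 6 lower without K36M d0 replicate 2. For this and the lists below, 18.8% of all tested genes were higher and 15.6% lower in K36M. Wnt7b rose from 0.312 and 0.507 to 3.18 and 3.02 CPM (log2 2.91 ± 0.37, edgeR adjusted p = 2.33e-06), and its difference from WT missed the threshold (adjusted p = 0.0616). Sfrp2, a Wnt antagonist, fell from 5.4 and 5.57 to 0.889 and 0.765 CPM. Rspo2, a ligand of Lgr5, fell from 13.4 and 15 to 3.56 and 3.79 CPM in K36M and from 20.3 and 20.9 to 8.59 and 7.22 CPM in WT. BMP genes gave 5 higher and 5 lower of 19, with 3 higher without K36M d0 replicate 1 or with the offset for exonic length and 2 without K36M noOKSM replicate 2. Id4, an inhibitor of helix-loop-helix factors, fell from 17 and 17.1 to 4.57 and 5.39 CPM. Cytokines gave 11 higher and 6 lower of 24, and 7 higher without K36M d0 replicate 1, K36M d0 replicate 2 or K36M noOKSM replicate 2. C3, the central complement component, rose from 0.357 and 0.645 to 8.47 and 6.46 CPM (log2 3.89 ± 0.32, adjusted p = 6.53e-09), and the alarmin Il33 from 0.491 and 0.921 to 4.62 and 4.4 CPM, while the chemokine Cxcl14 fell from 91.6 and 96.4 to 28.7 and 26.6 CPM. Matrix proteases included Mmp9, a gelatinase, which rose from 17.9 and 19 to 79.5 and 60.6 CPM, and Adamts1, which fell from 404 and 396 to 116 and 106 CPM.

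Markers of other cell types are given beside the shares over all tested genes. These were 18.8% higher and 15.6% lower in K36M, and 4.15% higher and 4.06% lower in WT. In bulk RNA fewer cells of a type and less RNA per cell cannot be told apart. Macrophage genes gave 7 lower of 16 in K36M (4 without K36M d0 replicate 1) and 14 lower in WT, with a summed level of 27.6 and 28.2 CPM in K36M d0, 13.3 and 18.9 CPM in K36M noOKSM, 83.3 and 91.5 CPM in WT d0 and 21.6 and 22.1 CPM in WT noOKSM. Ptprc (CD45) fell from 1.12 and 1.38 to 0.296 and 0.191 CPM and Emr1 (F4/80) from 1.12 and 1.57 to 0.296 and 0.344 CPM in K36M. The summed macrophage level was thus lower in K36M noOKSM than at d0, while the leukocyte tetraspanin Cd53 and the chemokine Ccl17 rose. Whether macrophages have a part in the interferon and class I rise was not tested. Schwann cell and neural crest genes gave 7 lower and 1 higher of 14, and Sox10 fell in both genotypes, from 2.32 and 2.35 to 0.466 and 0.535 and from 1.99 and 1.79 to 0.28 and 0.282 CPM. The member that rose was Pmp22, from 81.8 and 85.4 to 211 and 228 CPM. Endothelial genes gave 5 higher and 1 lower of 14: Emcn rose from 2.68 and 2.76 to 16.7 and 20.6 CPM and the receptor Kdr fell from 3.35 and 4.14 to 0.847 and 0.612 CPM, with Sox17 at 0 counts in both groups. What part these cell types have in the results was not tested.

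Cartilage genes rose more often than they fell in K36M. Of 18 tested members 9 were higher and 4 lower in K36M, 0 higher and 5 lower in WT, and the difference was called upward for 8. For all tested genes the shares were 18.8% and 15.6% in K36M, 4.15% and 4.06% in WT, and 12.8% for an upward difference. Col9a2 and Col9a1, chains of the cartilage collagen IX, rose from 0.625 and 0.322 to 5.97 and 5.01 CPM and from 0.714 and 0.599 to 6.48 and 7.19 CPM, and Col11a2 from 2.1 and 2.03 to 12.8 and 9.98 CPM (log2 2.46 ± 0.22, adjusted p = 1.64e-08). The chondrocyte factor Sox6 fell from 2.1 and 1.98 to 0.339 and 0.42 CPM in K36M and from 1.23 and 1.99 to 0.489 and 0.242 CPM in WT, and Sox9, Sox5 and Acan were the other members that fell. Bone genes gave 4 lower of 8: Dlx5 fell from 2.19 and 1.34 to 0.0847 and 0.0765 CPM and Spp1, osteopontin, from 361 and 393 to 209 and 221 CPM. Skeletal muscle genes split 6 higher and 3 lower of 13 (3 higher without K36M d0 replicate 2), at a few CPM or less for Tnnt1 (0.982 and 1.1 CPM at d0 and 3.01 and 5.08 CPM in noOKSM) and embryonic myosin Myh3 (1.43 and 2.44 CPM and 0.0847 and 0.0765 CPM).

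Levels over the reprogramming course place these changes. Krt7 in K36M noOKSM (mean 139 ± 17.5 CPM, SD, n = 2) was above its mean at every K36M reprogramming stage, of which d8 was the highest (99 ± 8 CPM). Krt8 in K36M noOKSM (93.6 ± 5.7 CPM) lay between K36M d2 (30.0 ± 1.09 CPM) and K36M d4 (347 ± 13 CPM). Isg15 was at 10.4 ± 0.438 CPM in K36M noOKSM and at or below 3.06 CPM on average from K36M d2 to d8, and the iPSC groups were the only others above 5 CPM. Igfbp5 at 78.8 ± 21.4 CPM in K36M noOKSM was above every reprogramming stage of either genotype, where means ran from 0.343 to 8.79 CPM. Edn1 means in K36M went from 19.8 ± 0.824 CPM at d2 to 1.61 ± 0.0239 CPM at d8, and noOKSM had 1.7 ± 0.236 CPM, while WT means from d2 to d8 ran from 42.4 to 73.7 CPM. Reprogramming was done with OKSM in another medium, so these levels are set side by side and not tested.

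**Figure D5:**
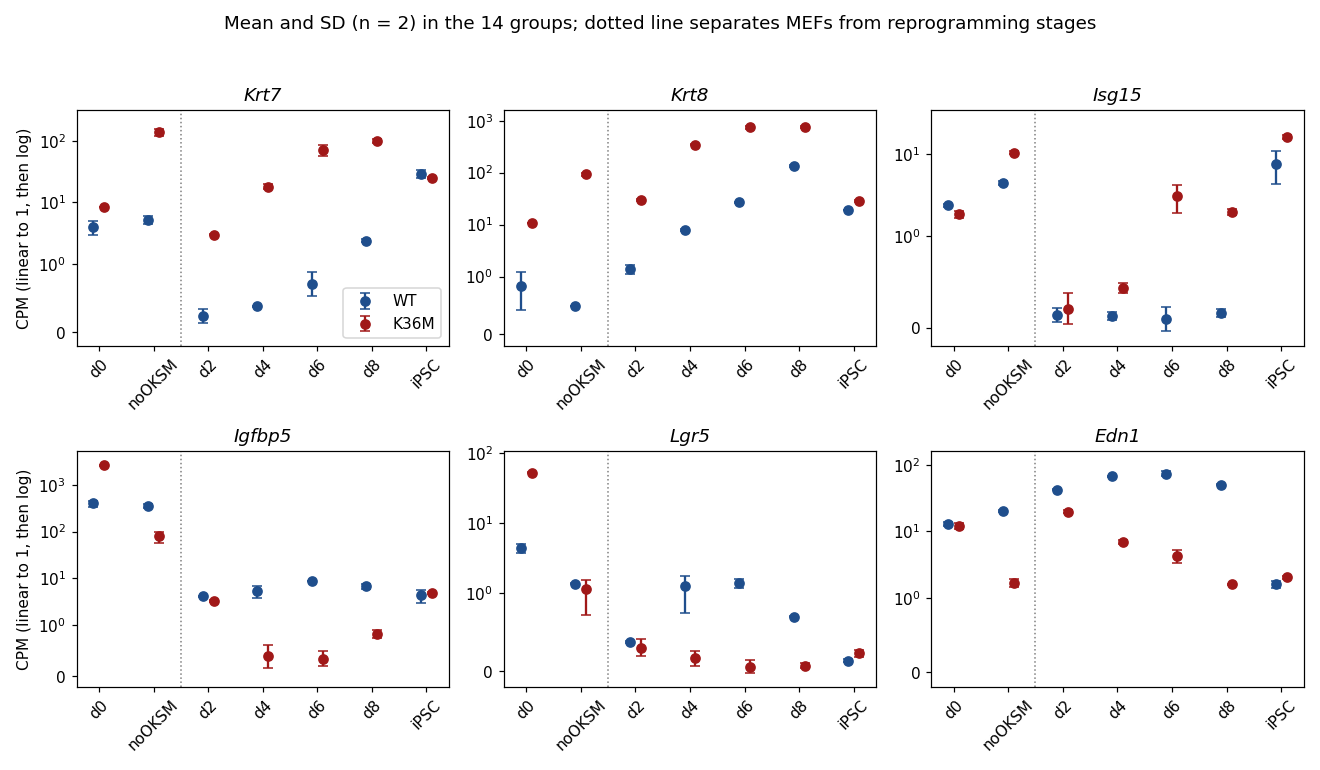
Mean and SD (n = 2) of 6 genes in CPM in the 14 groups, WT in blue and K36M in red, on an axis linear to 1 and logarithmic above. Left of the dotted line are MEFs at d0 and noOKSM, right of it the reprogramming stages and iPSCs; Igfbp5 and Lgr5 are highest in K36M d0, and Krt7 is highest in K36M noOKSM.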

How the data were processed

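Poly(A) RNA of 28 libraries was counted per gene. The tools in the submitters' processing notes are HTSeq 0.11.2, edgeR and STAR 2.5.0, with build mm9; the strand setting is not given in the sources used here. The deposited values are raw counts of the authors for 37620 genes, and 37205 IDs were found in GENCODE vM1, which gave positions and exonic length. No column of another sample was present.

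Genes were filtered with filterByExpr (minimum count 10, minimum total 15), leaving 16932. All 28 libraries in 14 groups of 2 were fitted with edgeR 4.0.16 (TMM, robust quasi-likelihood, 14 residual degrees of freedom) under R 4.3.3, with Benjamini-Hochberg adjustment over all tested genes and a threshold of 0.05. CPM are counts per 1e6 of TMM library size. The script was tested on simulated data. Named genes were the 15 largest rises and 15 largest falls in K36M and the 8 largest differences each way (groups not overlapping, mean of at least 5 CPM, no predicted, pseudogene or ribosomal protein names), up to 4 called members per list, and fixed controls; others are marked, and some genes are not reported here. Members and lists were chosen with earlier results of these data known. Alternatives were other size factors, no filter, fewer libraries, a replicate block, each library left out, DESeq2 1.42.0, and, added after seeing the data, an offset for exonic length and protein-coding genes only.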

Additional observations from a re-analysis of the deposited data

Results flagged for a closer look

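The change from d0 to noOKSM differed between K36M and WT, by edgeR's test of the difference itself at an adjusted p below 0.05, for 4246 genes, and the genes named in the text that belong to them are given here with the K36M change minus the WT change on the log2 scale. Esrp1 and Col9a2 also passed, but a group at 0 counts makes their fitted value depend on the prior count, so it is not given. The value of Qprt also rests on WT libraries at 0 to 0.107 CPM, and its call was lost without WT d0 replicate 1 (adjusted p = 0.0899). The difference of H3f3b was lost under 8 settings, those of Pdk1 and Cd34 under 6, that of H3f3a under 5 and that of Oas1a under 3. Hira, Ubn1, Hist1h2bc and Uhrf1 lost theirs under 2 settings, and Bnip3, Oasl2, Lss, Sfrp2, Ubn2, Tfeb, Whsc1 and Whsc1l1 under 1. The other settings were not run gene by gene for Rpl3-ps1, Krt18, Bst2, Acan, Sox9, Ifit2, Prrx1, Hoxa4, Hoxa5, Hoxa10, Hoxb4, Hoxb7, Hoxc8, Hoxc9 and Hoxd9. No explanation was tested for any of these genes.

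The K36M change lay furthest above the WT change for Qprt (7.00), Slc52a3 (5.21), Spon2 (4.22), Angpt4 (4.08), Il33 (3.95), Krt8 (3.89), Dhrs3 (3.70), Krt7 (3.64) and Mgp (3.49). Next came Arsi (3.48), Sncg (3.44), Oas1a (3.31), Pygl (3.29), Ccl17 (3.17), Sdsl (3.17), Des (3.05), Cd53 (2.83) and Oasl2 (2.67). Smaller positive differences were found for Fndc5 (2.61), Lama1 (2.56), Emcn (2.55), Psmb8 (2.53), Krt18 (2.40), Slfn2 (2.40), Mylk (2.37), Klra4 (2.32) and Col11a2 (2.22). A further set consisted of Bst2 (2.17), H2-M3 (2.16), H2-Q4 (2.07), B3gnt3 (1.94), Mfap5 (1.88), Hoxa5 (1.82), Foxf1a (1.72), Mmp9 (1.69) and Pmp22 (1.68). Positive differences of lesser size belonged to Hoxa4 (1.62), Isg15 (1.57), Tap2 (1.52), Nupr1 (1.40), Acan (1.35), Eif2s3y (1.34), Hist1h1c (1.23), Hoxc8 (1.20) and Rpl3-ps1 (1.12). Lower still were Cdkn2a (1.07), Tdrkh (1.03), Nnat (1.01), Tfeb (0.90), Hist1h2bc (0.88), Hoxb7 (0.88), Spp1 (0.84), Hoxc9 (0.78) and Bnip3 (0.76). The differences nearest to 0 on this side were those of Cbx8 (0.70), F3 (0.70), Hoxb4 (0.67), Sqstm1 (0.50), Pdk1 (0.46) and H3f3b (0.33).

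On the other side, the K36M change lay furthest below the WT change for Hoxc12 (-6.08), Igfbp5 (-4.89), Tnn (-4.07), Lgr5 (-3.87), Fgf10 (-3.66), Fgl2 (-3.60), Sema3d (-3.48), Edn1 (-3.46) and Sema6d (-3.46). After these followed Kcnf1 (-3.35), Peli2 (-2.99), Epas1 (-2.93), Nrn1 (-2.80), Igsf10 (-2.73), Hoxd10 (-2.61), Sfrp2 (-2.52), Dapk3 (-2.45) and Dpt (-2.36). Intermediate negative differences were measured for Myocd (-2.34), Dner (-2.20), Thbs1 (-2.16), Id4 (-2.10), Fn1 (-2.05), Osr1 (-2.01), Spry4 (-1.94), Klf4 (-1.78) and Cd34 (-1.71). Somewhat smaller ones were seen for Foxf2 (-1.71), Gap43 (-1.66), Nr4a1 (-1.60), Tnc (-1.59), Sox9 (-1.54), Hoxd8 (-1.53), Adamts1 (-1.48), Inhba (-1.40) and Hoxd9 (-1.38). Negative differences of lesser size belonged to Ifit2 (-1.31), Tgfbr3 (-1.31), Ndrg1 (-1.18), Gpnmb (-1.10), Lats2 (-1.0), Pole (-1.0), Ctgf (-0.98), Dnmt1 (-0.92) and Hoxa10 (-0.92). Closer to 0 were Mki67 (-0.91), Inhbb (-0.87), Cxcl14 (-0.85), Whsc1 (-0.83), Ubn2 (-0.81), Jarid2 (-0.80), Amotl2 (-0.79), Whsc1l1 (-0.78) and Prrx1 (-0.72). Nearest to 0 among the negative differences were Cdc6 (-0.61), Rrm2 (-0.60), Lss (-0.56), Uhrf1 (-0.56), Ubn1 (-0.50), H3f3a (-0.49) and Hira (-0.46).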

How the results depend on the processing

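With 1 library left out at a time, the number of genes called between K36M noOKSM and K36M d0 ran from 3315 to 5589, those higher from 1869 to 3040 and those lower from 1362 to 2549. For WT the counts ran from 635 to 1379 called, 272 to 721 higher and 352 to 658 lower. For the difference between the changes they ran from 2301 to 4788 called, 1164 to 2464 above and 1137 to 2324 below. A group left with 1 library was assumed to vary like the others. Under the other settings each of these counts stayed within 1.5 times: K36M calls numbered 5853 with relative log expression size factors, 6053 with no filter, 5874 with the 8 MEF libraries alone, 5205 with the 4 K36M libraries alone, 5665 by DESeq2, 5689 with the offset for exonic length and 5683 with protein-coding genes only. Of 211 named calls in K36M none changed sign under any setting run, and 173 to 210 kept their call (fewer than 211 were tested under 3 settings). Of 143 named calls of the difference none changed sign, and 114 (without WT d0 replicate 1) to 143 kept their call. Those lost under 1 or more settings include Qprt, Oas1a, Oasl2, Cd34, Pdk1, Bnip3, Uhrf1, Hira, Ubn1, H3f3a and H3f3b.

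Replicate numbers match across groups only as numbers: libraries of the same number deviated with a correlation of 0.12 between K36M d0 and K36M noOKSM and of -0.44 to 0.26 between other MEF groups. With a replicate block 5903 genes were called in K36M, 1389 in WT and 4309 for the difference.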

Other observations

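Further gene groups not described above are set beside the 34.5% of all tested genes called in K36M, 18.8% higher and 15.6% lower. The histone and lysosome groups were called about as often as all tested genes. Histone genes that can appear in poly(A) RNA gave 5 higher and 0 lower of 14 (4 and 2 with the offset for exonic length), and 3 higher without K36M d0 replicate 1, K36M d0 replicate 2 or K36M noOKSM replicate 2. They were led by Hist1h2bc, from 37.6 and 41.6 to 79.5 and 116 CPM, and the linker histone Hist1h1c, from 67.9 and 68.4 to 124 and 142 CPM. Lysosome and autophagy genes gave 6 higher and 1 lower of 22, and 2 higher without K36M d0 replicate 1 or without K36M noOKSM replicate 2. Sqstm1, the autophagy receptor p62, rose from 438 and 468 to 684 and 688 CPM, its regulator Tfeb from 3.71 and 4.47 to 6.9 and 7.34 CPM, and Gpnmb fell from 26.6 and 27.1 to 13.5 and 11.2 CPM. The amino acid starvation response split, 9 higher and 7 lower of 30 (4 higher without K36M d0 replicate 1, 5 without K36M noOKSM replicate 2, and 12 lower with the offset), with Nupr1 higher (80.1 and 86.4 to 161 and 225 CPM) and the cystine transporter Slc7a11 lower (21.4 and 21.6 to 8.34 and 7.22 CPM). Metallothionein Mt2 rose in both genotypes, from 4.15 and 4.88 to 9.11 and 12.4 CPM in K36M and from 7.51 and 5.46 to 11.2 and 12.2 CPM in WT.

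Lists of lineages far from fibroblasts are given beside the 34.5% of all tested genes called in K36M. Of 11 tested trophoblast genes the single call was Krt7. Of 12 primitive endoderm genes 3 rose and 1 fell. Among them Lama1, a laminin chain, rose from 1.29 and 1.7 to 10.4 and 5.92 CPM. Of 16 germline and 2-cell genes 3 rose, among them Tdrkh, a piRNA pathway factor, from 12.8 and 14.5 to 34.9 and 38.8 CPM. Of 16 neuronal genes 2 rose and 2 fell, with 4 lower with the offset for exonic length and 1 higher without K36M d0 replicate 1 or K36M noOKSM replicate 2. Isl1 rose in both genotypes, from 0.134 and 0.0461 to 1.48 and 0.956 CPM in K36M and from 0 and 0.051 to 1.26 and 1.33 CPM in WT, and Gap43 fell from 12.1 and 13.6 to 3.39 and 2.6 CPM. Of 6 tested sex chromosome genes the single call in K36M was Eif2s3y, and the median log2 change was -0.04. The Y-linked gene Eif2s3y was at 50.8 and 45.9 CPM in K36M d0 and 83.5 and 95.1 CPM in K36M noOKSM (adjusted p = 0.0059), a call lost without K36M d0 replicate 2 (adjusted p = 0.0574) or K36M noOKSM replicate 2 (adjusted p = 0.0687).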
